A study of Homo sapiens with 28 samples.

Results

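The CHD family of chromatin remodellers was described in SK-N-MC cells in which CHD4 or the EWS-FLI1 fusion had been silenced, with the question whether the paralogues of CHD4 respond when CHD4 is lost. The members were the 9 genes CHD1 to CHD9, chosen by symbol and not by any measured value, of 35488 genes in the deposited table. Each symbol had 1 row, and all 9 passed the filter on low values (a mean of at least 10 over the 28 libraries), as did 21025 genes in all.

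SK-N-MC is an established cell line from an Ewing sarcoma, a childhood tumour driven by a fusion of EWSR1 with FLI1. Each of 4 derivatives carried a short hairpin RNA switched on by doxycycline, and every library, controls included, came from cells given 100 ng/ml doxycycline. The hairpins were shCHD4#1 and shCHD4#2 against CHD4, shFLI1 (labelled as a knockdown of EWS-FLI1) and the control shScramble. Total RNA was taken after 24 or 48 h. At each time there were 3 shCHD4#1, 3 shCHD4#2, 3 shFLI1 and 5 shScramble libraries. The labels call them biological replicates, of a single line, and say neither how the hairpin lines were selected nor whether replicates came from separate infections. The genotype label given to shScramble at 48 h names a CHD4 knockdown, while title and treatment name the control, and the CHD4 level there was that of the 24 h shScramble libraries.

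CHD proteins are ATP-dependent helicase-like enzymes that slide, space or evict nucleosomes, and they bind chromatin through paired chromodomains. They fall into 3 subfamilies. CHD1 and CHD2 bind DNA and act at transcribed genes. CHD3, CHD4 and CHD5 carry PHD fingers and are alternative ATPases of NuRD, a complex that couples nucleosome remodelling to histone deacetylation. CHD6, CHD7, CHD8 and CHD9 are large proteins that act at promoters and enhancers. In Ewing sarcoma CHD4 is known as a cofactor found with EWS-FLI1 at its binding sites.

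A hairpin against one paralogue could match another, so the coding sequences were compared first. Short hairpins pair with about as many bases as the 21-base words counted here. Of the 6271 words of the principal CHD4 transcript, 44 occurred in that of CHD5, 30 in that of CHD3, 1 in that of CHD2 and 0 in those of the other members. Only exact words in 1 principal transcript per gene were counted. Shorter or imperfect matches and other transcripts were not tested, so a count of 0 does not show that a hairpin cannot match a member. Over aligned coding bases, identity with CHD4 was 73.5% for CHD5 and 73.1% for CHD3. The longest shared coding run was 37 bases with CHD3 and 38 bases with CHD5, and both are shown with 24 flanking bases on each side, because they are where a hairpin could least tell these genes apart. Capitals mark the shared run. The sequences are from the GENCODE release 29 transcripts on GRCh38, read in the direction of transcription. The first pair lies at chr17:7900914-7901248 (plus strand, exons 19 and 20) in CHD3 and at chr12:6591821-6591995 (minus strand, exons 19 and 20) in CHD4, and differs at 11 of 48 flanking bases. The second lies at chr1:6152512-6154720 (minus strand, exons 5 and 6) in CHD5 and at chr12:6601029-6601349 (minus strand, exons 5 and 6) in CHD4, and differs at 27 of 48.
CHD3, run shared with CHD4: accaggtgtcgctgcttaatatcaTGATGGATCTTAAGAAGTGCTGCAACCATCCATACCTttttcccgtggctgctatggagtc
CHD4, run shared with CHD3: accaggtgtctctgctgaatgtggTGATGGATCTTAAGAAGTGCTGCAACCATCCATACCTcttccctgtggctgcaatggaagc
CHD5, run shared with CHD4: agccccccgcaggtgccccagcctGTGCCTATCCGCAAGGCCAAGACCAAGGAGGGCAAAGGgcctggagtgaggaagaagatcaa
CHD4, run shared with CHD5: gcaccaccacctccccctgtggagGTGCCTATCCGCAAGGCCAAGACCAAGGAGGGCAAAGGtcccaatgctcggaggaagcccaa
No source used here gives the hairpin sequences, so whether either hairpin matches these runs was not tested.

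Depth was 46102707 to 64775441 recovered reads per library, and the values below are normalized counts, gene reads divided by a size factor for each library. FLI1 changed by -1.16 and -1.17 on the log2 scale with shFLI1 at 24 and 48 h. At 48 h FLI1 also fell by 0.34 with shCHD4#2 (adjusted p = 0.0291) and was at -0.12 with shCHD4#1 (adjusted p = 0.470), and EWSR1, the other fusion partner, was at -0.28 with shCHD4#1 (adjusted p = 0.0580), -0.39 with shCHD4#2 (adjusted p = 0.00873) and -0.35 with shFLI1 (adjusted p = 0.00768). All 8 Ewing sarcoma markers were high in the shScramble libraries, while blood, epithelial, endothelial, muscle and neuroblast markers were at or near 0 apart from CDH5 (27 to 82 normalized counts) and PTPRC (29 to 54). Replicates 1 and 2 of shCHD4#1, shCHD4#2 and shScramble, 12 libraries, had more reads in processed pseudogenes (0.313 to 0.388% of reads) than the other 16 (0.223 to 0.283%). They are called the first library kind below and the other 16 the second. For the CHD4 hairpins the first kind holds 2 libraries per group, and the second 1 hairpin library against 3 shScramble libraries, whose lone sample is assumed to vary like the others. All shFLI1 libraries are of the second kind. Mitochondrial ribosomal RNA made up 18.0 to 19.9% of the shFLI1 reads and 15.2 to 17.8% of the shScramble reads at 24 h, and 22.1 to 22.5% of the shFLI1 reads and 16.2 to 18.0% of the shScramble reads at 48 h, without overlap at either time, and its part in the shFLI1 results was not tested. Because the values are relative to each library, fewer cells of a type and less RNA per cell cannot be told apart.

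CHD4, the ATPase of most NuRD complexes in dividing cells, fell to 0.24 to 0.28 of its control level with either hairpin. At 24 h it had 2747, 2996 and 3226 normalized counts with shCHD4#1 and 2785, 2975 and 3465 with shCHD4#2. With shFLI1 the libraries had 13802, 13898 and 16011, against 10099, 10383, 12037, 12352 and 12879 in shScramble. Each CHD4 hairpin library therefore lay far below every control library. At 48 h the values were 2959, 3126 and 3482 with shCHD4#1 and 2722, 2801 and 2727 with shCHD4#2. In shFLI1 cells the values were 13153, 12493 and 13482, against 9343, 10706, 13100, 12773 and 12105 in shScramble. Here too no CHD4 hairpin library came near a control.

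In log2 terms CHD4 changed by -1.95 (SE 0.11, limma adjusted p = 4.74e-07) with shCHD4#1 and -1.91 (SE 0.11, adjusted p = 5.76e-07) with shCHD4#2 at 24 h. At 48 h the changes were -1.86 (SE 0.10) and -2.07 (SE 0.10). Between the hairpins the difference in CHD4 was -0.04 at 24 h (95% interval -0.29 to 0.22) and 0.21 at 48 h (-0.03 to 0.46, adjusted p = 0.164). The 48 h difference missed the threshold, but all 3 shCHD4#1 libraries lay above all 3 shCHD4#2 libraries. In the 48 h libraries of the second kind, 1 per hairpin and so with no test, that difference was 0.35.

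**Figure D1:**
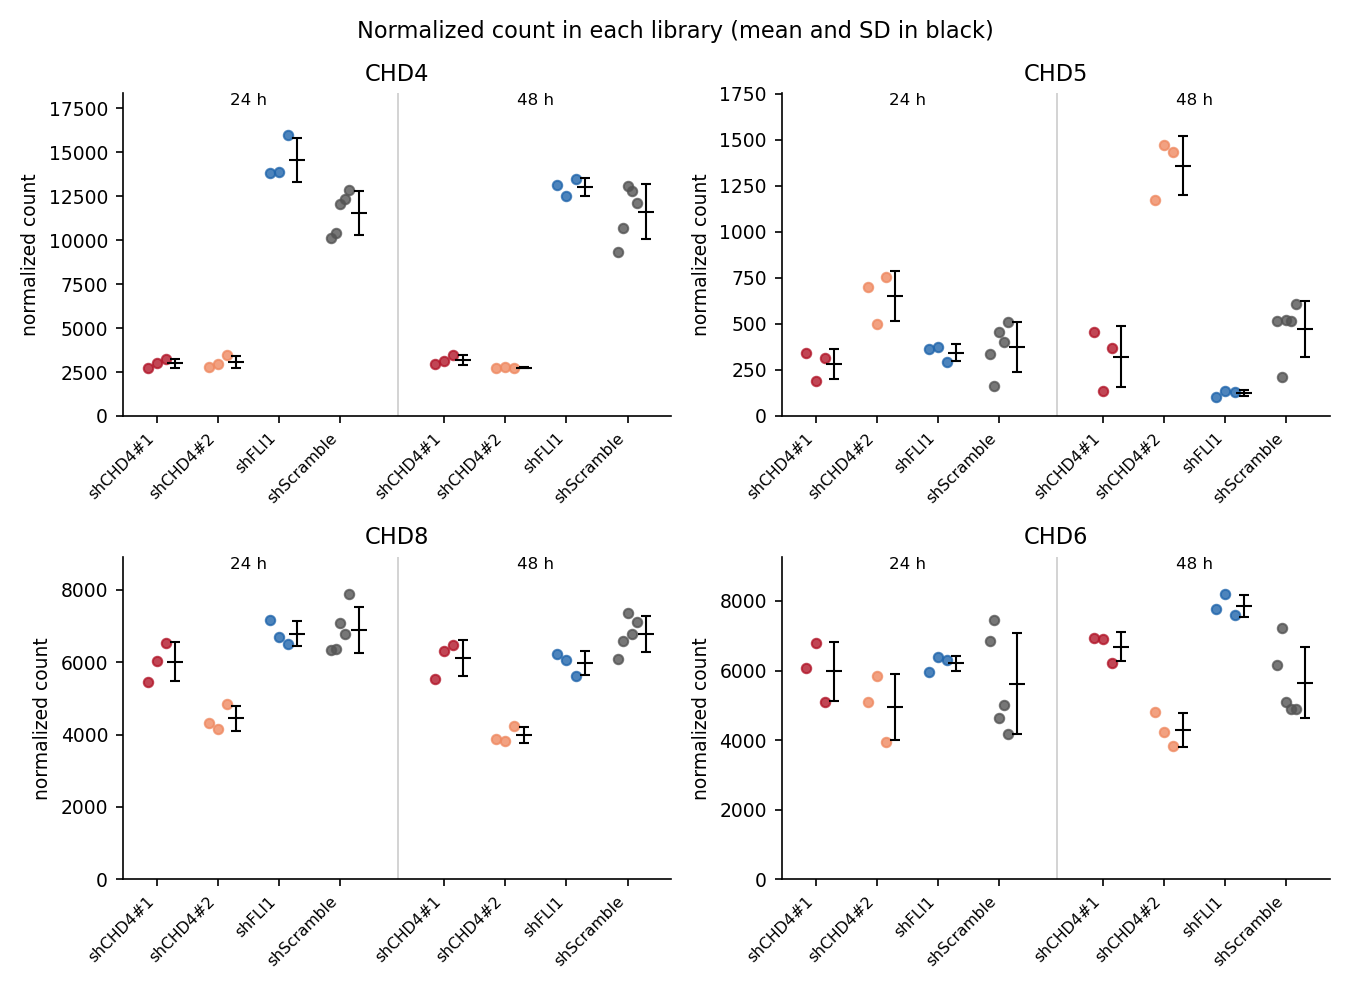
Normalized counts of CHD4, CHD5, CHD8 and CHD6 in each library, by hairpin at 24 h and 48 h, with the mean and SD (3 libraries per knockdown, 5 for shScramble) beside the points. CHD4 is low with both CHD4 hairpins, whereas CHD5 is high and CHD8 low with shCHD4#2 alone of the pair; the 3 CHD5 values with shCHD4#2 at 48 h are 1175 to 1473, against 210 to 607 in shScramble.

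The CHD4 row may not hold all reads of the CHD4 locus. CHD4 spans chr12:6570082-6614524 on the minus strand, and in GENCODE release 29 53.5% of its 12713 exon bases also belong to another gene counted in the table. AC006064.6, a protein-coding gene annotated on the same strand, shares 46.9% of them, and the antisense gene AC006064.2 shares 10.2%. No source used here says how reads in shared bases were assigned. AC006064.6 averaged 5479 ± 167 normalized counts with shCHD4#1, 6191 ± 503 with shCHD4#2 and 15503 ± 1063 with shFLI1 at 24 h (SD, n = 3 each), against 14455 ± 1763 in shScramble (SD, n = 5). It changed by -1.39 and -1.22 on the log2 scale with the CHD4 hairpins at 24 h, and by -1.34 and -1.24 at 48 h. Of 14207 genes with a mean of at least 100, it was 1 of the 3 whose 8 group means ran closest to those of CHD4 (Pearson r 0.991, and 0.989 over 28 libraries, a description only). WASL, an activator of actin branching, had r 0.993, and AP4M1, a subunit of a vesicle coat adaptor, 0.991.

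The level of each member per kilobase of exon, the scale on which genes can be compared, put CHD3 first and CHD5 last in all 8 groups when lengths were taken over all exon bases. In shScramble at 24 h the mean levels per kilobase were 1642 ± 177 for CHD3, 909 ± 97 for CHD4, 859 ± 9 for CHD1, 524 ± 93 for CHD7 and 398 ± 102 for CHD6 (SD, n = 5). CHD2 followed at 387 ± 53, CHD8 at 329 ± 30, CHD9 at 247 ± 19 and CHD5 at 37.8 ± 13.7. The libraries of CHD4 and CHD1 overlapped, as did those of CHD6 and CHD2 and of CHD2 and CHD8, and in none of these pairs was the same gene higher in all 5 libraries, so their order is not resolved. CHD7 overlapped with CHD6 and CHD2 between libraries but was the higher gene within each of the 5. With the CHD4 hairpins CHD4 took place 7 of 9 at both times, at 235 ± 19 with shCHD4#1 and 242 ± 28 with shCHD4#2 at 24 h and at 251 ± 21 and 216 ± 3.5 at 48 h (n = 3 each). At 24 h the libraries of CHD4 and CHD9 overlapped with either hairpin. Neither gene was the higher in all 3 libraries, so their order there is not resolved.

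These places depend on the length used, since the shared exons of CHD4 may carry reads that its row lacks. Divided by the exon bases that no other counted gene shares, an alternative chosen after seeing the data, CHD4 was at 1952 ± 209 per kilobase in shScramble at 24 h and came first, above CHD3 at 1642 ± 177. On that scale CHD4 took place 3 with either CHD4 hairpin at both times. Taken over its longest transcript, CHD8 was at 813 ± 75 per kilobase in shScramble at 24 h and came in place 4.

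**Figure D2:**
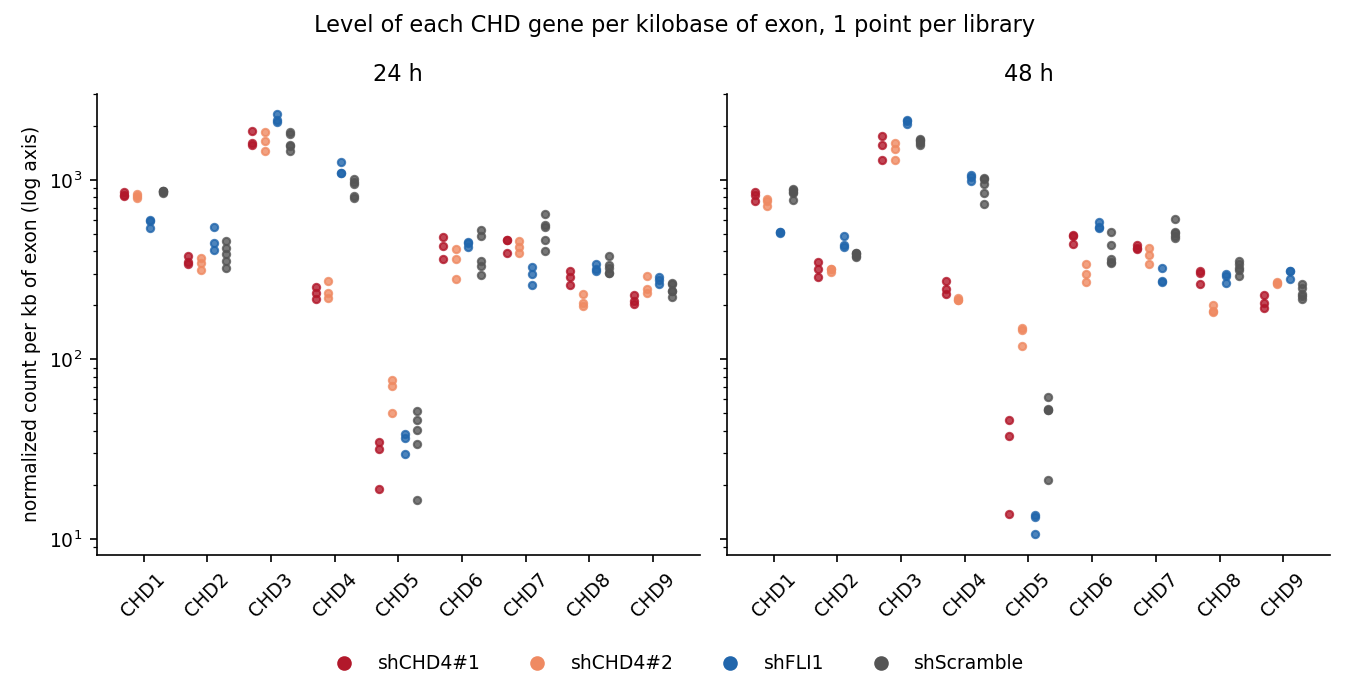
Level of the 9 CHD genes in normalized counts per kilobase of exon (all exon bases, log axis), 1 point per library, at 24 h and 48 h. CHD3 is the top gene in every group and CHD5 the bottom one, and CHD4 with either CHD4 hairpin falls among the lower members at 216 to 251 on average.

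CHD3, CHD4 and CHD5 are alternatives in NuRD, so their levels per kilobase were also expressed as shares of their sum. CHD4 held 12.1 ± 0.7% of it with shCHD4#1, 12.4 ± 1.1% with shCHD4#2 and 34.0 ± 2.4% with shFLI1 at 24 h, against 35.1 ± 1.9% in shScramble. At 48 h its shares were 13.9 ± 1.7%, 12.01 ± 1.16% and 32.5 ± 1.2%, against 35.1 ± 2.6% in shScramble. CHD5 held 1.73 ± 0.81% with shCHD4#1, 7.64 ± 1.23% with shCHD4#2 and 0.397 ± 0.056% with shFLI1 at 48 h, against 1.84 ± 0.56% in shScramble. With the exon bases of no other counted gene, the CHD4 share was 22.9% with shCHD4#1 and 23.3% with shCHD4#2 at 24 h, against 53.8% in shScramble. These shares are descriptions of RNA, with no test.

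**Figure D3:**
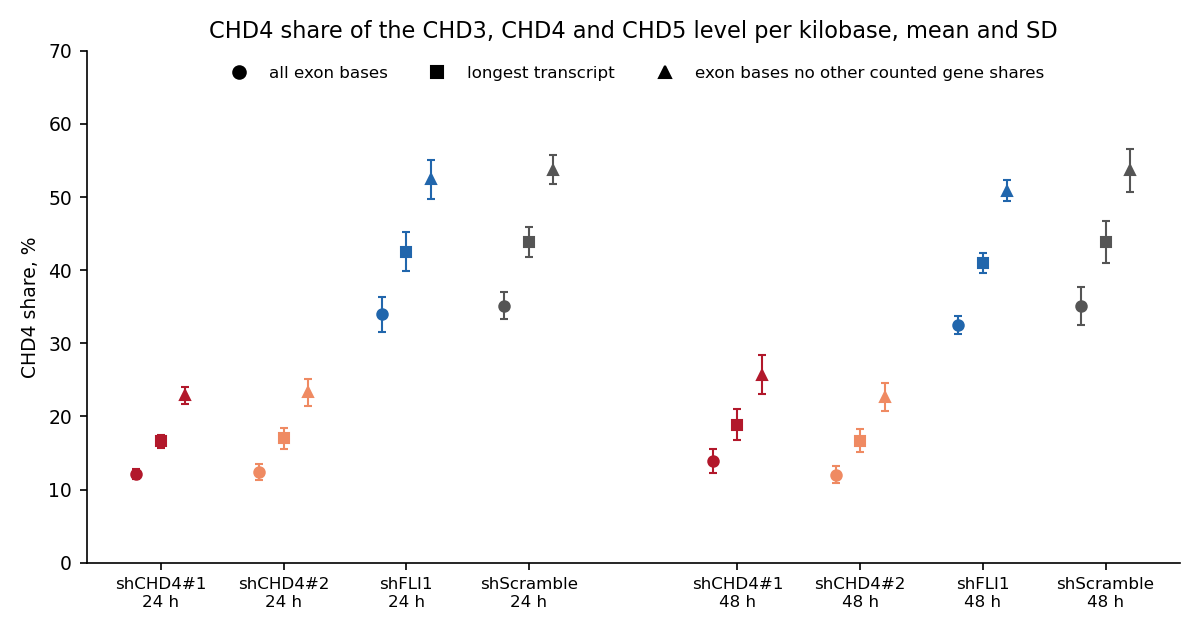
CHD4 share, in percent, of the summed CHD3, CHD4 and CHD5 level per kilobase in the 8 groups, as mean and SD over libraries, under 3 ways of counting length (circles, all exon bases; squares, longest transcript; triangles, exon bases of no other counted gene). The share with the CHD4 hairpins is 12.01 to 13.9% for all exon bases, against 35.1% in shScramble; a change of length rescales a gene alike in every group, so the 3 lengths are no independent check of that difference.

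Among the 8 paralogues, the calls differed by hairpin and time. With shCHD4#1 at 24 h, limma called 0 of 8 (11.3% of all genes tested were called), with 1 of 8, CHD9, at an unadjusted p under 0.05, and edgeR and DESeq2 on recovered reads called 0. With shCHD4#2 at 24 h it called 1, CHD8, lower (7.01% of all genes were called lower and 11.1% either way). With shCHD4#1 at 48 h it called 2 lower, CHD2 and CHD7 (15.5% of all genes were called lower and 28.4% either way). With shCHD4#2 at 48 h it called 5, with CHD5 higher (17.5% of all genes were called higher) and CHD2, CHD6, CHD7 and CHD8 lower (20.3% were called lower and 37.9% either way). The counts of 0 and 1 of 8 at 24 h, and of 2 of 8 with shCHD4#1 at 48 h, are near the background. With library kind as a term in the fit, shCHD4#1 at 24 h gave 2 lower calls (CHD7 and CHD9), and shCHD4#2 at 24 h gave 1 higher (CHD5) and 3 lower (CHD6, CHD7 and CHD8). The share of all genes called in that fit is not given here, so these counts cannot be set against a background. The median log2 change of the 8 paralogues was -0.15 with shCHD4#1 and -0.12 with shCHD4#2 at 24 h, and -0.16 and -0.23 at 48 h, beside medians of all genes of -0.02, 0.00, -0.01 and 0.01. All these comparisons share their shScramble libraries within a time.

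**Figure D4:**
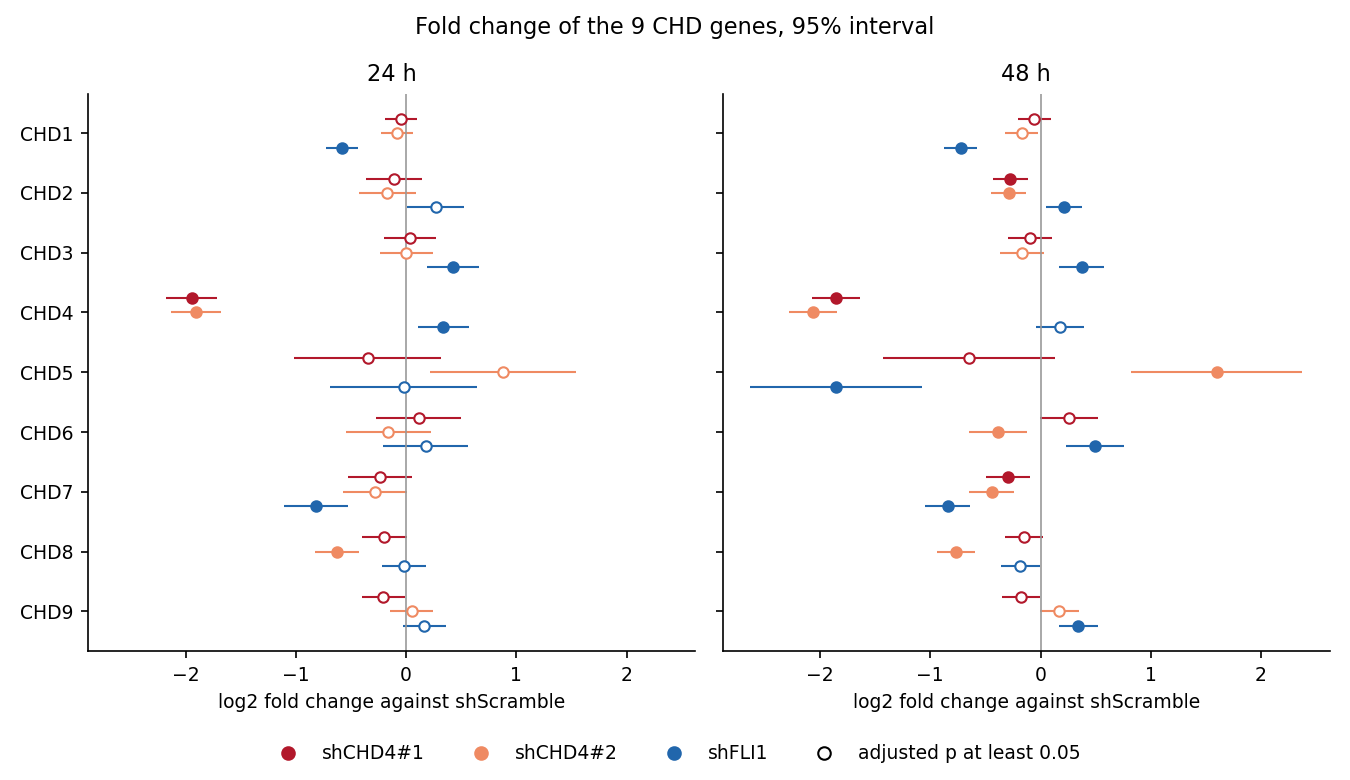
Log2 fold change against shScramble, with its 95% interval, of the 9 CHD genes with shCHD4#1, shCHD4#2 and shFLI1 at 24 h and 48 h; filled points have an adjusted p under 0.05. CHD4 stands at -1.86 to -2.07 with its hairpins, CHD5 at 1.60 with shCHD4#2 and -1.86 with shFLI1 at 48 h, and most other values lie within 1 log2 unit of 0.

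CHD3, the most abundant paralogue with its own place in NuRD, was not called with either CHD4 hairpin. At 24 h its libraries held 15245 to 18290 normalized counts with shCHD4#1 and 14046 to 18109 with shCHD4#2, against 14052 to 18004 in shScramble. The 3 ranges almost coincide. At 48 h they held 12635 to 17052 and 12603 to 15571, against 15199 to 16527 in shScramble. The log2 changes were 0.03 (95% interval -0.20 to 0.27) and 0.00 (-0.23 to 0.24) at 24 h, and -0.10 (-0.30 to 0.10) and -0.17 (-0.37 to 0.03) at 48 h. A rise of CHD3 beyond 0.27 on the log2 scale lay outside each of these intervals, and at 48 h a rise beyond 0.10.

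CHD5, the paralogue best known from neurons and testis and as a candidate tumour suppressor of chromosome 1p, was the member that moved most apart from CHD4. At 24 h it had 343, 188 and 315 normalized counts with shCHD4#1, and 702, 499 and 757 with shCHD4#2. With shFLI1 they were 362, 377 and 294, against 334, 162, 457, 402 and 513 in shScramble. All groups overlapped with shScramble, that of shCHD4#2 by its lowest library. At 48 h the values were 456, 136 and 371 with shCHD4#1 and 1175, 1473 and 1434 with shCHD4#2. In shFLI1 cells they were 105, 135 and 131, against 517, 210.3, 523, 515 and 607 in shScramble. Every shCHD4#2 library lay above, and every shFLI1 library below, all 5 controls.

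With shCHD4#2, CHD5 rose at 48 h by 1.60 on the log2 scale (SE 0.36, adjusted p = 0.00331), a fold of 3.03. At 24 h its change with shCHD4#2 was 0.88 (SE 0.31, adjusted p = 0.0870), and with the replicate number as a block it was 1.14 (adjusted p = 0.0113). With shCHD4#1 the changes were -0.35 (adjusted p = 0.530) at 24 h and -0.65 (adjusted p = 0.202) at 48 h. Without replicate 2 of shScramble the 48 h change with shCHD4#1 was -0.92 (adjusted p = 0.0330), and without replicate 2 of shCHD4#1 it was -0.12 (adjusted p = 0.838). The 48 h change with shCHD4#2 was 1.99 (adjusted p = 0.0732) in the first library kind alone and 1.39 (adjusted p = 0.000761) in the second. The authors' deposited table gives 1.63 for shCHD4#2 at 48 h (adjusted p = 0.0191, not from a test against 0, as described under the processing).

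CHD5 spans chr1:6101793-6180123 on the minus strand and shares 2.16% of its exon bases with AL031847.2, annotated on the same strand. AL031847.2 itself changed by 0.06 (adjusted p = 0.678) with shCHD4#2 at 48 h. Genes whose 8 group means ran closest to those of CHD5 were SLC35B3, a transporter of sulphate donor nucleotides (r 0.997 over 8 group means, 0.868 over 28 libraries), LINC02789 (0.988 and 0.755) and C3orf38 (0.980 and 0.639). These correlations describe 28 libraries that share controls and depth, and carry no test.

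CHD8, a remodeller that represses beta-catenin targets and whose mutation is a known cause of autism, fell with shCHD4#2 at both times. At 24 h it had 5454, 6041 and 6522 normalized counts with shCHD4#1, and 4332, 4166 and 4842 with shCHD4#2. For shFLI1 the counts were 7165, 6686 and 6491, against 6336, 6355, 7073, 6788 and 7884 in shScramble. The shCHD4#2 libraries lay below all others, and those of shCHD4#1 reached into the control range. At 48 h the values were 5542, 6311 and 6479 with shCHD4#1 and 3881, 3827 and 4232 with shCHD4#2. In shFLI1 cells the counts were 6235, 6068 and 5605, against 6087, 6579, 7365, 6774 and 7099.9 in shScramble. Again no shCHD4#2 library overlapped with any other group.

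The changes of CHD8 with shCHD4#2 were -0.63 (SE 0.09, adjusted p = 0.000696) at 24 h and -0.77 (SE 0.08, adjusted p = 9.89e-06) at 48 h, folds of 0.65 and 0.59. In the first library kind alone they were -0.58 (adjusted p = 0.00694) and -0.72 (adjusted p = 0.0165), and in the second -0.58 (adjusted p = 0.0396) and -0.74 (adjusted p = 0.000630). The authors' deposited table gives -0.73 (SE 0.06, adjusted p = 0.270) for shCHD4#2 at 48 h. That p-value is not from a test against 0, unlike those of limma. With shCHD4#1 the limma changes of CHD8 were -0.20 (adjusted p = 0.208) and -0.15 (adjusted p = 0.190). CHD8 lies at chr14:21385194-21456126 on the minus strand, and other counted genes share 1.95% of its exon bases.

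CHD6, a remodeller linked to oxidative stress responses, differed between the library kinds within the controls. At 48 h it had 6941, 6908 and 6225 normalized counts with shCHD4#1, and 4811, 4239 and 3821 with shCHD4#2. With shFLI1 the values were 7760, 8200.4 and 7599, against 6152, 7219.8, 5093, 4908 and 4887 in shScramble. All shCHD4#2 libraries lay below the controls, by little in 1 case, and all shFLI1 libraries above them. The first 2 shScramble values, of the first library kind, lay above the other 3 at 48 h, and so did those at 24 h (6861 and 7448, against 4169 to 5015).

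With shCHD4#2, CHD6 fell at 48 h by 0.39 on the log2 scale (adjusted p = 0.0227), a change of -0.56 (adjusted p = 0.0313) in the first library kind alone and of -0.38 (adjusted p = 0.00689) in the second. The call was lost without replicate 2 (-0.38, adjusted p = 0.0728) or 3 (-0.31, adjusted p = 0.112) of shCHD4#2, with quantile normalisation (-0.27, adjusted p = 0.154), and when only the groups compared were fitted (adjusted p = 0.0658). With shCHD4#1 the 48 h change was 0.26 (adjusted p = 0.132), at 0.06 (adjusted p = 0.827) in the first library kind alone and 0.33 (adjusted p = 0.0173) in the second. Without replicate 2 of shScramble it was 0.35 (adjusted p = 0.0165). At 24 h the changes were 0.11 and -0.16, with adjusted p = 0.743 and 0.654.

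CHD7, the gene mutated in CHARGE syndrome and active at enhancers of neural crest, fell with both CHD4 hairpins at 48 h. It had 6961 to 7338 normalized counts with shCHD4#1 and 5808 to 7089 with shCHD4#2, against 8063 to 10280.3 in shScramble, without overlap. The changes were -0.29 (adjusted p = 0.0314) and -0.44 (adjusted p = 0.00215). With quantile normalisation they were -0.18 (adjusted p = 0.266) and -0.30 (adjusted p = 0.0515), in the first library kind alone -0.37 (adjusted p = 0.181) and -0.52 (adjusted p = 0.0588), and in the second -0.24 (adjusted p = 0.141) and -0.38 (adjusted p = 0.0281). The shCHD4#1 call was also lost without any 1 of its 3 libraries (adjusted p 0.0727 to 0.0923) or without replicate 4 of shScramble (-0.30, adjusted p = 0.0517), and edgeR gave an adjusted p of 0.0502. At 24 h the changes were -0.24 (adjusted p = 0.299) and -0.29 (adjusted p = 0.212), and in the first library kind alone -0.38 (adjusted p = 0.0431) and -0.44 (adjusted p = 0.0202).

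CHD9, a broadly expressed member studied in mesenchymal and bone cells, was not called with either CHD4 hairpin. At 48 h it had 3190 to 3780.5 normalized counts with shCHD4#1 and 4347 to 4453 with shCHD4#2, against 3592 to 4329 in shScramble. The 3 shCHD4#2 libraries lay just above the controls and the shCHD4#1 libraries overlapped with them. The changes were -0.18 (adjusted p = 0.125) and 0.17 (adjusted p = 0.116). With quantile normalisation the shCHD4#2 change was 0.28 (adjusted p = 0.0247).

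CHD1 and CHD2 form the subfamily that acts on transcribed genes; CHD1 reads methylated histone H3, and CHD2 is known from epilepsy. CHD1 had 7965 to 8921 normalized counts with shCHD4#1 and 7463 to 8179 with shCHD4#2 at 48 h, against 8049.9 to 9306 in shScramble. Its changes were -0.06 (95% interval -0.21 to 0.09) and -0.17 (-0.32 to -0.02, adjusted p = 0.0683). Without replicate 1 of shScramble the shCHD4#2 change was -0.20 (adjusted p = 0.0292), and DESeq2 gave -0.17 (adjusted p = 0.0294). With quantile normalisation the changes were 0.08 (adjusted p = 0.447) and -0.02 (adjusted p = 0.882). CHD2 had 4887 to 5902 normalized counts with shCHD4#1 and 5169 to 5415 with shCHD4#2 at 48 h, against 6318 to 6668 in shScramble, with no overlap. It fell by 0.27 (adjusted p = 0.0137) with shCHD4#1 and by 0.29 (adjusted p = 0.00745) with shCHD4#2. With the replicate block the shCHD4#1 change was -0.28 (adjusted p = 0.0508), and without replicate 2 of shCHD4#1 it was -0.20 (adjusted p = 0.1001). In the first library kind alone the changes of CHD2 were -0.30 (adjusted p = 0.183) and -0.32 (adjusted p = 0.114). In the second both were -0.25, and with quantile normalisation they were -0.17 and -0.16 (adjusted p = 0.172 and 0.171). CHD2 shares 10.2% of its exon bases with AC013394.1, annotated on the same strand, so its row may not hold all of its reads. AC013394.1 was at -0.14 (limma adjusted p = 0.287) with shCHD4#1 and -0.03 (adjusted p = 0.829) with shCHD4#2 at 48 h.

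The 2 CHD4 hairpins differed in 4 paralogues when directly compared. At 48 h CHD6 and CHD8 were higher and CHD5 and CHD9 lower with shCHD4#1 than with shCHD4#2 (19.2% of all genes tested were called higher, 18.6% lower and 37.9% either way). The differences were -2.25 for CHD5 (SE 0.41, adjusted p = 0.000757), 0.65 for CHD6 (SE 0.14, adjusted p = 0.00228), 0.62 for CHD8 (SE 0.09, adjusted p = 0.000187) and -0.35 for CHD9 (SE 0.09, adjusted p = 0.00855). For each of the 4, the 3 libraries of 1 hairpin lay wholly apart from the 3 of the other, as did those of CHD4 itself, whose difference of 0.21 was not called. The part of the CHD4 level in these differences was not tested. In the first library kind alone the differences were -2.39, 0.62, 0.62 and -0.35 in the same order of genes (adjusted p = 0.0471, 0.0280, 0.0243 and 0.0926), and in the second, with 1 library per hairpin and so no test, -1.95, 0.70, 0.61 and -0.35. At 24 h CHD8 differed by 0.43 (adjusted p = 0.0182; 5.62% of all genes were called higher) and CHD5 by -1.23 (adjusted p = 0.0374; 4% were called lower and 9.62% either way). The 24 h call of CHD8 was lost without 4 of the 6 libraries in turn (adjusted p 0.0533 to 0.0829) and that of CHD5 without 5 of the 6 (adjusted p 0.0553 to 0.183). In the first library kind alone CHD5 differed by -1.22 (adjusted p = 0.0794). For CHD1, CHD2, CHD3 and CHD7 the 48 h differences were 0.11 (95% interval -0.06 to 0.28), 0.02 (-0.16 to 0.19), 0.07 (-0.15 to 0.30) and 0.15 (-0.08 to 0.38).

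**Figure D5:**
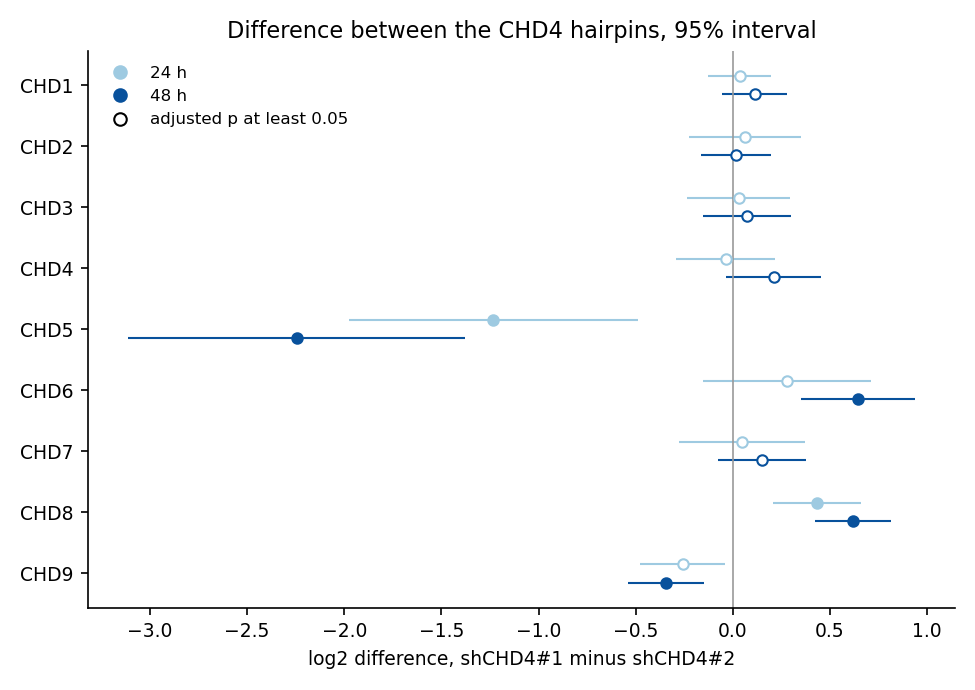
Log2 difference, shCHD4#1 minus shCHD4#2, with its 95% interval for the 9 CHD genes at 24 h and 48 h; filled points have an adjusted p under 0.05. CHD4 itself lies at -0.04 and 0.21, while CHD5 lies at -1.23 and -2.25 and CHD8 at 0.43 and 0.62.

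Silencing EWS-FLI1 changed most of the family by 48 h, on a background in which most genes were called. With shFLI1 at 24 h, 1 of 8 paralogues was called higher (24.2% of all genes) and 2 lower (22.5%, or 46.7% either way). At 48 h, 4 were called higher (32.2%) and 3 lower (31.7%), or 7 of 8, where 63.9% of all genes were called either way. CHD1 and CHD7 fell at both times, CHD1 to 5648 to 6219 normalized counts, against 8790.3 to 9041 in shScramble at 24 h, and to 5312 to 5377, against 8049.9 to 9306 at 48 h. The changes of CHD1 were -0.58 (adjusted p = 7.93e-06) and -0.73 (adjusted p = 5.05e-07). CHD7 changed by -0.82 (adjusted p = 0.000195) and -0.84 (adjusted p = 2.35e-06), with no overlap at either time. These falls of CHD1 and CHD7 kept their sign and their call with median centring, quantile normalisation, edgeR and DESeq2. Median centring moved every log2 change with shFLI1 by -0.08 at 24 h and by -0.12 at 48 h. In the second library kind alone, 3 shFLI1 against 3 shScramble libraries, 4 paralogues were called higher at 24 h. These were CHD3 (0.34, adjusted p = 0.0183), CHD2 (0.39, adjusted p = 0.0194), CHD6 (0.43, adjusted p = 0.00285) and CHD9 (0.24, adjusted p = 0.0321). For this subset the share of all genes called is not given, so the count of 4 cannot be set against a background.

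CHD3 rose with shFLI1 by 0.42 (adjusted p = 0.00587) at 24 h and by 0.37 (adjusted p = 0.00304) at 48 h, with 20084 to 21018 normalized counts at 48 h, against 15199 to 16527 in shScramble. CHD6 rose at 48 h by 0.49 (adjusted p = 0.00282), CHD9 by 0.34 (adjusted p = 0.00195) and CHD2 by 0.21 (adjusted p = 0.0224). The CHD2 call was lost without replicate 3 of shFLI1 (0.15, adjusted p = 0.125) and with median centring (0.10, adjusted p = 0.263). CHD4 rose at 24 h by 0.34 (adjusted p = 0.0176), a call lost without replicate 3 of shFLI1 (0.27, adjusted p = 0.0952), with median centring (0.26, adjusted p = 0.0576) and in the second library kind alone (0.23, adjusted p = 0.0580). At 48 h the CHD4 change was 0.18 (adjusted p = 0.139), and with quantile normalisation 0.43 (adjusted p = 0.000539). CHD8 was at -0.02 (adjusted p = 0.886) and -0.18 (adjusted p = 0.0647), and the 48 h value was -0.25 (adjusted p = 0.00701) in the second library kind alone and -0.22 (adjusted p = 0.0279) without replicate 1 of shScramble.

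CHD5 differed between the times after shFLI1. Its change was -0.02 (adjusted p = 0.959) at 24 h and -1.86 (SE 0.36, adjusted p = 0.000429) at 48 h, a fold of 0.28. In the second library kind alone the changes were -0.41 (adjusted p = 0.0320) and -2.15 (adjusted p = 1.20e-06). The 48 h change minus that at 24 h was -1.83 (SE 0.51, adjusted p = 0.0134), where 9.44% of all genes were called with a lower fold change at 48 h and 16.7% either way. CHD5 was the 1 member called in a comparison of fold changes between times. For shCHD4#1 and shCHD4#2, limma, edgeR and DESeq2 each called 0 of the 8 paralogues in that comparison, with 0 at an unadjusted p under 0.05 (0.00476% and 0.989% of all genes were called). The difference for CHD5 with shCHD4#2 was 0.72 (95% interval -0.33 to 1.77). In shScramble itself 0 of the 8 were called at 48 h against 24 h by the 3 tools, with 0 at an unadjusted p under 0.05 (0% of all genes were called by limma, and 485 of 21025 had an unadjusted p under 0.05). With the replicate number as a block in the shScramble libraries alone, an alternative chosen after seeing the data, CHD5 was higher at 48 h in 5 of 5 pairs, by 0.36 (SE 0.08, limma adjusted p = 0.308, unadjusted p = 0.00106), and the other 7 paralogues had larger p-values. The authors' deposited table gives -1.89 for CHD5 with shFLI1 at 48 h (adjusted p = 0.0122, again not from a test against 0).

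Set directly against the mean of both CHD4 hairpins, shFLI1 left CHD4 higher by 2.27 at 24 h and 2.14 at 48 h. At 48 h all 8 paralogues differed, CHD2, CHD3, CHD6, CHD8 and CHD9 higher (32.9% of all genes) and CHD1, CHD5 and CHD7 lower (32.8%, or 65.7% either way). The sizes were 0.49 for CHD2, 0.51 for CHD3, 0.55 for CHD6, 0.28 for CHD8 and 0.35 for CHD9. CHD1 was at -0.61, CHD5 at -2.33 and CHD7 at -0.47. The CHD8 call was lost with median centring (0.14, adjusted p = 0.114). At 24 h 4 were higher and 2 lower (28% and 24.8% of all genes, or 52.9% either way), while CHD5 (-0.29, adjusted p = 0.440) and CHD6 (0.20, adjusted p = 0.350) were not called. Of those calls, that of CHD9 was lost with median centring (0.14, adjusted p = 0.205), with edgeR (0.21, adjusted p = 0.0826) and without 6 of the 9 libraries in turn (adjusted p 0.0583 to 0.121). The CHD3 call was lost in the second library kind alone (0.23, adjusted p = 0.120), and the CHD2 call without replicate 3 of shFLI1 (0.29, adjusted p = 0.0707). The shScramble libraries do not enter these fold changes, but they share in the estimate of spread behind the p-values.

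Partners of CHD4 were read beside the family. Of 12 NuRD subunits other than the CHD ATPases, 2 were called with shCHD4#1 and 1 with shCHD4#2 at 24 h, all lower. At 48 h 1 was higher and 3 lower with shCHD4#1, and 3 higher and 3 lower with shCHD4#2, with list medians of -0.12 and -0.05. Those 4 and 6 of 12 stand beside 28.4 and 37.9% of all genes called either way, and the 24 h counts beside 11.3 and 11.1%. The list's share was near the background with either hairpin at 24 h and with shCHD4#1 at 48 h. RBBP4, a histone-binding subunit, fell with shCHD4#2 by 0.60 (adjusted p = 0.00333) at 24 h and by 1.02 (adjusted p = 3.15e-05) at 48 h, and with shCHD4#1 it was at -0.14 and -0.22 (adjusted p = 0.474 and 0.201). GATAD2B, a scaffold that joins CHD4 to the deacetylase core, rose at 48 h by 0.64 (adjusted p = 0.000893) with shCHD4#1 and by 0.47 (adjusted p = 0.00486) with shCHD4#2. HDAC2, a deacetylase, fell by 0.47 (adjusted p = 0.00428) with shCHD4#1 at 48 h and was at -0.21 (adjusted p = 0.131) with shCHD4#2. With shFLI1 at 48 h GATAD2B rose by 0.51 (adjusted p = 0.00121), HDAC2 fell by 0.62 (adjusted p = 0.000126) and RBBP4 was at -0.14 (adjusted p = 0.345).

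The ChAHP complex joins CHD4 to ADNP and HP1 proteins. Of its 4 partner genes listed (ADNP, CBX1, CBX3, CBX5), 3 were called lower with each CHD4 hairpin at 48 h, with medians of -0.48 and -0.32, where 15.5 and 20.3% of all genes were called lower. CBX1, which encodes an HP1 protein, fell with shCHD4#1 by 0.50 (adjusted p = 0.0294) at 24 h and by 0.73 (adjusted p = 0.000543) at 48 h. With shCHD4#2 it fell by 0.82 (adjusted p = 0.00168) and by 1.23 (adjusted p = 5.04e-06). With shFLI1 it was at 0.19 (adjusted p = 0.284) and -0.09 (adjusted p = 0.550). CBX5, another HP1 gene, fell with shCHD4#1 by 0.33 (adjusted p = 0.0455) and 0.49 (adjusted p = 0.00189), and was at -0.16 (adjusted p = 0.356) and 0.11 (adjusted p = 0.424) with shCHD4#2. With shFLI1 CBX5 rose by 0.41 (adjusted p = 0.00361) at 24 h and was at 0.13 (adjusted p = 0.243) at 48 h. ADNP, the DNA-binding subunit, fell by 0.21 (adjusted p = 0.0352) with shCHD4#2 at 48 h and was at -0.15 (adjusted p = 0.157) with shCHD4#1 and -0.10 (adjusted p = 0.259) with shFLI1.

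Other remodelling ATPases of the SNF2 superfamily, 20 genes, gave 2 higher and 3 lower calls with shCHD4#1 at 48 h, and 1 higher and 10 lower with shCHD4#2, with medians of 0.04 and -0.31. With shCHD4#1, 5 of 20 is near the 28.4% of all genes called either way, while with shCHD4#2 20.3% of all genes were called lower. SMARCA4, the BRG1 ATPase of SWI/SNF complexes, fell at 48 h by 0.25 (adjusted p = 0.0146) with shCHD4#1 and by 0.62 (adjusted p = 1.60e-05) with shCHD4#2. SMARCA5, the ISWI ATPase, fell by 0.42 (adjusted p = 0.0157) with shCHD4#1 and was at -0.28 (adjusted p = 0.0743) with shCHD4#2. RAD54L, an ATPase of recombinational repair, fell by 0.31 (adjusted p = 0.0248) with shCHD4#2 and was at -0.26 (adjusted p = 0.0696) with shCHD4#1. Compared directly at 48 h, 11 of the 20 were higher and 1 lower with shCHD4#1 than with shCHD4#2, where 19.2 and 18.6% of all genes were. With shFLI1 at 48 h SMARCA4 fell by 0.52 (adjusted p = 1.44e-05) and SMARCA5 by 0.42 (adjusted p = 0.00568). RAD54L fell by 1.72 (adjusted p = 3.49e-09).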

How the data were processed

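RNA from 28 libraries was read as paired ends after a stranded total RNA preparation, per the labels' protocols. The submitters' processing notes name HISAT2 2.1.0 and SAMtools 1.7, featureCounts 1.6.0, FastQC 0.11.7, DESeq2 1.34.0 and the build GRCh38. How strand and shared reads were handled in counting is stated in no source at hand. The deposited tables carry in their names an annotation tag that is not release 29, and the release itself is not spelled out. Of the 35488 genes in the deposited table, 34232 were found in GENCODE release 29. Exon lengths, overlaps, levels per kilobase and shares here rest on release 29, and their dependence on the release was not tested. As deposited, the signal of a gene is its read count over the size factor of the library, and the authors' comparison tables hold a log2 fold change and a p-value, plus a score (a test statistic) in the unused table below. The authors' p-values cited here do not come from a test against a change of 0. For CHD8 with shCHD4#2 at 24 h, the authors give p = 0.966 at a change of -0.582 (SE 0.062). The comparison table that by its name is for shFLI1 after 24 h carries shScramble at 48 h against 24 h instead (r 0.99 with that difference and 0.24 with shFLI1, over genes with a mean of at least 100) and was not used.

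Whole reads were recovered for 100% of values within a tolerance of 0.02. Changes were tested mainly with limma-trend (limma 3.58.1, R 4.3.3) on values with a pseudocount of 1 added, in log2, which understates changes of low genes, over 21025 genes. Each time was fitted with its 4 groups, and comparisons between times with all 8. P-values are two-sided, adjusted by Benjamini-Hochberg over all genes tested and called under 0.05; ± is SD. On simulated data the fit recovered most of the changed genes. Those data held no effect of library kind or replicate, and changes larger than most of those of the paralogues, so smaller changes were not tested. Alternatives were a pseudocount of 5, no filter, median centring, quantile normalisation, edgeR (4.0.16) and DESeq2 (1.42.0) on recovered reads, a replicate block, only the groups compared, library kind as a term, the second library kind alone and leaving out each library, and, chosen after seeing the data, the first library kind alone, the block in the shScramble libraries alone and 1 more way of counting length. Members, lists and tests were chosen with earlier results of these data known. All 9 members are named, and from each list 3 genes, those whose largest adjusted p over the 4 CHD4 hairpin comparisons is smallest. AC006064.6, AC006064.2, AL031847.2 and AC013394.1 were added for their overlap with members.

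Same-numbered libraries of the CHD4 hairpins and shScramble deviated together (correlations 0.12 to 0.55 in every pair, against -0.15 to 0.04 for shFLI1 and shScramble). Those of shScramble also did between times (0.45 to 0.64). Replicates 1 and 2 of these groups are of the first library kind and replicate 3 of the second, so the correlations cannot tell pairing from library kind. The main fits took the libraries as unpaired, and the replicate number entered only as a block in alternatives. All 38 pairs of libraries within groups differed by more than sampling noise, with a chi-square of 8.78 to 152 for each gene on average. The labels do not say that replicates are separate infections, so p-values measure the spread between these samples, which may be technical.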

Additional observations from a re-analysis of the deposited data

Results flagged for a closer look

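Of the 18 sets of 5 shScramble libraries tested, 9 genes at each time, 3 held a library set apart by a gap above 0.71 of the range. Chance flags about 1 in 20 independent sets, but these sets share their libraries and are not independent. A gap is relative to the range, so it can be small in counts. CHD1 had a gap of 0.785 of the group's range below the other libraries at 24 h, where replicate 2 had 8790.3 normalized counts and the others 8987 to 9041. CHD5 had a gap of 0.768 at 48 h, where replicate 2 had 210.3 and the others 515 to 607. CHD7 had a gap of 0.718 at 48 h, where replicate 2 had 10280.3 and the others 8063 to 8688. All 3 are replicate 2 of shScramble.

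The test of shCHD4#1 against shCHD4#2 called CHD5 (-1.23) and CHD8 (0.43) at 24 h and CHD5 (-2.25), CHD6 (0.65), CHD8 (0.62) and CHD9 (-0.35) at 48 h, all on the log2 scale. CHD4 itself was at -0.04 and 0.21 and was not called, though at 48 h its libraries did not overlap between the hairpins. The 48 h calls held in every alternative with at least 2 libraries per hairpin except the first library kind alone for CHD9 (adjusted p = 0.0926). The fold change of CHD5 with shFLI1 differed between times, by -1.83 for 48 h against 24 h. What these differences follow from was not tested.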

How the results depend on the processing

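Of 23 member calls against shScramble, 15 were kept under every alternative. The calls of CHD4 with both hairpins, of CHD8 with shCHD4#2, and of CHD1, CHD3 and CHD7 with shFLI1 were among them. The number of the 8 paralogues called moved most with library kind and scaling. No share of all genes called is given for the counts below. A rise or fall in them therefore cannot be told from one over all genes. With library kind as a term, 2 were lower with shCHD4#1 at 24 h, 1 higher and 3 lower with shCHD4#2 at 24 h, 4 higher with shFLI1 at 24 h, and 2 higher and 2 lower for shCHD4#1 against shCHD4#2 at 24 h. In the first library kind alone, 1 was lower with shCHD4#1 at 24 h, 1 higher and 3 lower with shCHD4#2 at 24 h, 0 lower with shCHD4#1 at 48 h, 0 higher and 2 lower with shCHD4#2 at 48 h, and 0 lower at 24 h and 1 lower at 48 h between the hairpins. In the second kind alone, 4 were higher with shFLI1 at 24 h. Counts for the CHD4 hairpins are left out there, since each has 1 library of that kind at each time. With quantile normalisation, 3 were higher with shFLI1 at 24 h, 0 lower with shCHD4#1 at 48 h, and 2 higher and 1 lower with shCHD4#2 at 48 h. DESeq2 called 1 higher with shCHD4#2 at 24 h, and edgeR 1 lower with shCHD4#1 at 48 h. Between the hairpins at 24 h, 0 were higher with only the groups compared and 0 lower without the filter.

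With the replicate block, 1 paralogue was higher with shCHD4#2 at 24 h and 1 lower with shCHD4#1 at 48 h. Under the block CHD6 with shCHD4#1 at 24 h was at -0.061 and CHD9 with shCHD4#2 at 24 h at -0.012, both reversed in sign. With shFLI1 at 24 h, where same-numbered libraries did not deviate together, CHD5 was at 0.23 and CHD8 at 0.042, also reversed. The block also ended the call of CHD2 with shFLI1 at 48 h (adjusted p = 0.0718) and made that of CHD4 (0.25, adjusted p = 0.0467).

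Leaving out 1 library gave 1 to 2 higher with shFLI1 at 24 h, 0 to 1 higher and 0 to 3 lower with shCHD4#1 at 48 h, 0 to 1 higher and 0 to 1 lower between the hairpins at 24 h, and 2 to 4 higher for shFLI1 against both hairpins at 24 h. Signs turned, in no called result, for CHD3 with shCHD4#1 (-0.050 to 0.082 at 24 h, -0.20 to 0.021 at 48 h) and shCHD4#2 (-0.087 to 0.096 at 24 h), CHD9 with shCHD4#2 at 24 h (-0.041 to 0.12), and CHD5 (-0.30 to 0.12) and CHD8 (-0.059 to 0.031) with shFLI1 at 24 h. Quantile normalisation turned CHD1 with shCHD4#1 (0.069 at 24 h, 0.076 at 48 h) and shCHD4#2 at 24 h (0.051), CHD3 at 48 h with shCHD4#1 (0.077) and shCHD4#2 (0.0051), and CHD8 with shFLI1 (0.14 at 24 h, 0.0074 at 48 h). In the first kind alone, CHD5 (0.13) and CHD6 (-0.16) turned with shCHD4#1 at 24 h. With kind as a term CHD6 did (-0.022). In the second kind alone, CHD9 with shCHD4#2 at 24 h (-0.0051) and CHD3 with shCHD4#1 at 48 h (0.066) turned. The cause was not tested.

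Length set the place of CHD4 per kilobase among the 9. With exon bases of no other counted gene it was 3 with either CHD4 hairpin and 1 with shFLI1 and shScramble, at both times, and with the longest transcript 6 with shCHD4#2 at both times. The CHD4 share with the longest transcript was 16.6, 17.0, 42.6 and 43.9% (shCHD4#1, shCHD4#2, shFLI1, shScramble) at 24 h and 18.9, 16.7, 41.0 and 43.8% at 48 h. With exon bases of no other counted gene it was 22.9, 23.3, 52.5 and 53.8% at 24 h and 25.7, 22.6, 50.9 and 53.7% at 48 h. With 3 libraries per knockdown, intervals of CHD5 spanned over 1 log2 unit.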
